A study of Mus musculus with 29 samples.

Results

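The comparison concerns conventional CD4+ T cells (Tcon) that had been activated in the presence of TGF-beta, collected at 72 h and set against the same kind of cells collected at 24 h. Its members were chosen by label: the 3 libraries titled 72h Tcon T and the 3 titled 24h Tcon T, 6 of the 29 libraries of the series. The cells came from spleens of C57BL/6-Foxp3tm1Flv/J mice, whose Foxp3 locus also drives a red fluorescent protein (RFP), and RFP-negative cells were sorted at both times. Both groups, like every group used here, were stimulated through CD3 (antibody at 1.25 ug/ml) and CD28 (2.5 ug/ml) with interleukin 2 (50 IU/ml) in medium holding 0.5 mM glucose. Both received 3 ng/ml TGF-beta and no lactic acid. For comparison, Tcon without TGF-beta were measured at 24 h (3 libraries) and 72 h (2 libraries), and Tcon with TGF-beta and 10 mM lactic acid at 24 h and 72 h (3 libraries each). At 72 h RFP-positive cells were sorted from the same TGF-beta medium as a separate population (Treg, 3 libraries), whereas at 24 h the series holds RFP-negative cells alone. Replicate 1 came from male and replicates 2 and 3 from female mice. Replicate 1 thus came from other animals than replicates 2 and 3, but no label says whether those 2 were separate animals, and none gives ages. P-values measure only the spread between these samples, part of which may be technical. No source used here says whether both times belong to 1 experiment, so time and a difference between experiments cannot be told apart.

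When a naive T cell meets antigen and costimulation, it leaves quiescence, raises the transcription factor Myc, builds ribosomes and enzymes and grows before it divides. Division then follows in rapid rounds, and the cell takes up large amounts of glucose and amino acids and releases lactate. Genes of the naive state are switched off while cytokines and cytotoxic proteins come on. TGF-beta, a cytokine that acts through Smad proteins, restrains parts of this program and induces Foxp3, the factor that defines regulatory T cells. Cells short of amino acids or oxygen, or under stress of the endoplasmic reticulum, raise further gene sets, among them those of the transcription factor ATF4 and of hypoxia-inducible factor.

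The 6 libraries held 10813654 to 12936458 gene counts, and 17918 to 19477 genes had at least 1 count. On principal component 1 (79.4% of the variance) the times lay apart, and component 2 (9.7%) set the 72 h replicate 1 library (score -46.78) apart from the other 72 h libraries (21.18 and 28.78). Counts of list members that moved by more than 1.5 times without that library are given below with and without it. Marker genes of CD4 T cells summed to 4162 ± 58.2 CPM at 24 h and 3866 ± 215 CPM at 72 h (mean ± SD, n = 3), where CPM is a count scaled for the size of its library. B cell markers summed to 133.6 ± 1.24 and 103.9 ± 10.7 CPM. The 9 CD8 and natural killer cell markers summed to 176.4 ± 19.4 and 132.0 ± 36.3 CPM, of which the chemokine gene Xcl1 made up 90.2% at 24 h and 45% at 72 h. Other members of that list rose. Cd8a, the CD8 alpha chain, stood at 0.408, 0.418 and 0.365 CPM at 24 h and 1.81, 12.8 and 13.9 CPM at 72 h (log2 4.55), and Klrk1, which encodes the receptor NKG2D, at 0.163, 0.251 and 0.183 and then 9.45, 13.8 and 19.3 CPM (log2 6.08). Klrd1 and Eomes rose by log2 3.46 and 1.74, Cd8b1 was not called (0.26), and Ncr1 stayed at or below 0.0837 CPM in every library. Myeloid markers summed to 4.672 ± 0.233 and 11.68 ± 0.585 CPM, with 5 of 13 at 0 in all 6 libraries. Erythroid markers summed to at most 0.3654 CPM in any library. The plasmacytoid dendritic cell sum went from 771.1 to 1176 CPM and was nearly all Irf8 and Bst2, which activated T cells also express. Stromal and endothelial markers summed to 29.79 ± 10.6 and 17.77 ± 0.718 CPM. The part of these other cells in the results below was not tested.

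**Figure D1:**
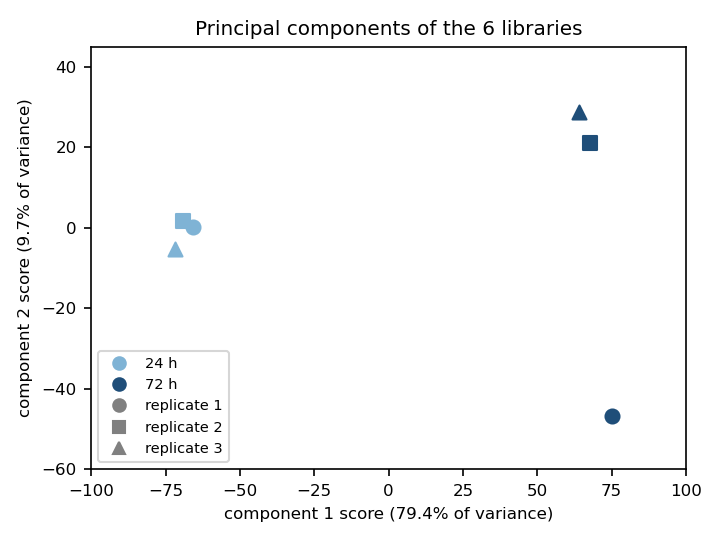
Scores of the 6 libraries on the first and second principal components of log2 CPM (79.4% and 9.7% of the variance); colour gives the time and shape the replicate. The times lie on opposite sides of component 1, and the 72 h replicate 1 library lies apart from the other 72 h libraries on component 2.

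Between 24 and 72 h a majority of the genes tested changed. Of 14375 genes tested, 7588 (52.8%) passed the test (adjusted p below 0.05), 4022 (28%) higher and 3566 (24.8%) lower at 72 h. Rises were larger than falls: 2294 genes (16%) were called and at least 2-fold higher, and 1018 (7.08%) were called and at least 2-fold lower. The median log2 fold change over all genes tested was 0.0078. For 4517 genes every 72 h library lay above every 24 h library, for 4226 below, and 7337 of the called genes showed no overlap. So large a background means that the count of a gene list must be read against 28% higher and 24.8% lower.

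The largest rises started from almost nothing. Vldlr, a lipoprotein receptor, had no count in any 24 h library and stood at 98.0, 64.2 and 75.5 CPM in the 72 h libraries, at least 925-fold higher against a floor of 3 counts over the 24 h group. Mt2, which encodes the metal-binding protein metallothionein 2, had no count at 24 h and 57.5, 45.9 and 32.1 CPM at 72 h, at least 528-fold higher. Pygl, glycogen phosphorylase of the liver type, had 1 count over the 24 h group and 53.5, 38.4 and 26.3 CPM at 72 h, a ratio of 1380 with a 95% counting interval of 247 to 54500. Nos2, the inducible nitric oxide synthase, had 1 count at 24 h and reached 16.8, 9.61 and 5.54 CPM (ratio 371, interval 66.3 to 14700). Kynu, which encodes the kynurenine pathway enzyme kynureninase, had 3 counts at 24 h and 14.5, 19.8 and 22.9 CPM at 72 h (ratio 224, interval 76.4 to 1090). Intervals and floors of this kind cover counting error only. These are genes whose transcripts were next to absent on the first day and measurable in every library on the third. Others of the 15 largest rises were Smtnl2, Aqp9, Dnah7a, Stc1, Mgarp, P4ha2, Pkp2, Mpp2, Tmem273 and Plcxd1. Aqp9, an aquaglyceroporin, went from at most 0.251 CPM to 23.1, 37.8 and 40.2 CPM, and Mpp2 from 0.245, 0.418 and 1.19 CPM to 94.6, 85.8 and 96.6 CPM.

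The 15 largest falls included 6 genes that interferon induces: Ifi213, Ifi209, Ifi208, Oasl2, Gbp11 and the surface antigen gene Ly6c1. Ifi209 fell from 13.0, 17.7 and 39.6 CPM to 0.411, 0.469 and 0.475 CPM, a 50.5-fold difference (log2 -5.66, SE 0.72, adjusted p = 7.7e-07). Ly6c1 fell from 22.6, 21.2 and 29.4 to 1.40, 1.64 and 1.82 CPM (log2 -3.90, SE 0.37). Pou2af1, a transcriptional coactivator of lymphocytes, fell from 57.7, 56.1 and 65.5 to 9.20, 3.98 and 3.09 CPM (log2 -3.46, SE 0.52). Others of this group were Art2b, Rpph1, Pgpep1l, Gsta4, Fbxo2, Alpl and Ak7. For each of these genes the 24 h and 72 h libraries did not overlap, as the naming rule required. Ifi200-family genes are similar in sequence, and reads may be shared among them.

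**Figure D2:**
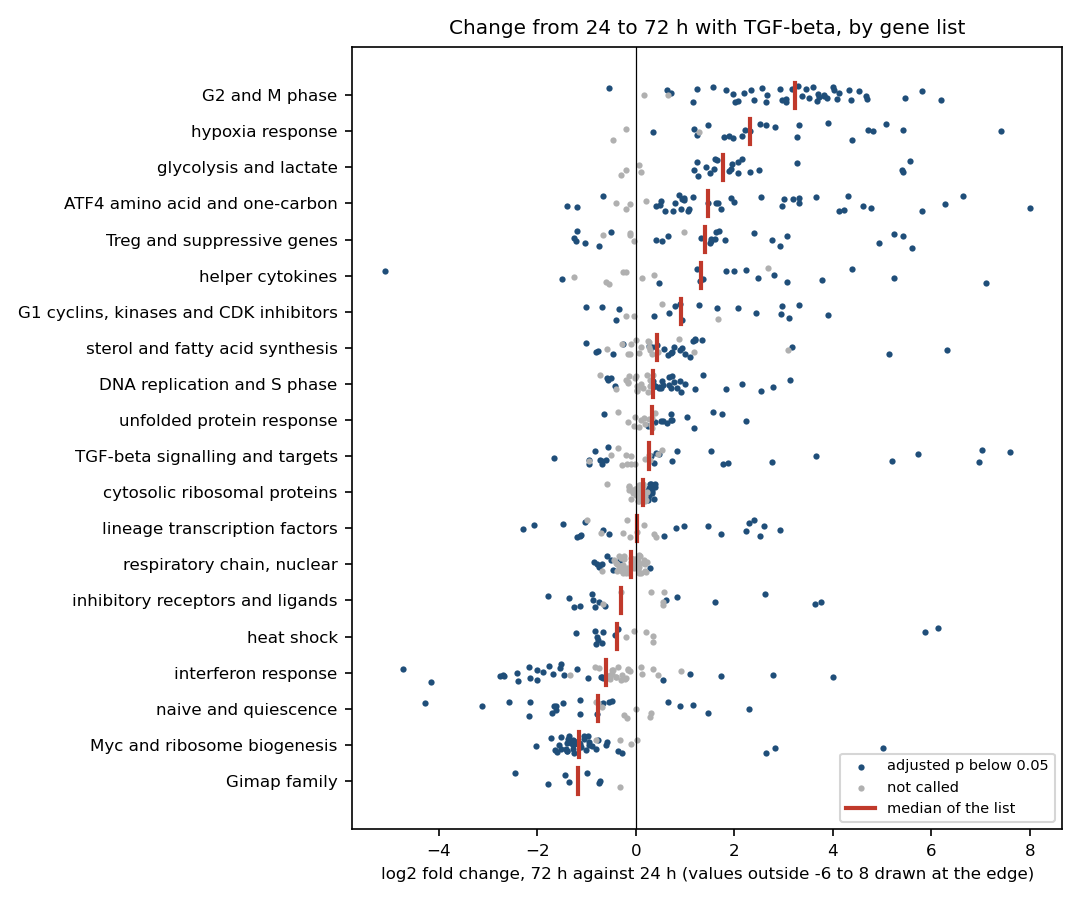
Log2 fold change from 24 to 72 h with TGF-beta of every tested member of 20 gene lists; each point is a gene, blue where called, and the red bar is the median of the list. G2 and M phase genes lie farthest to the right (median 3.24) and the Gimap and Myc lists farthest to the left (medians -1.17 and -1.16).

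Genes of mitosis made up the list with the highest median change. Of 46 G2 and M phase genes, all of which passed the filter on low counts, 43 rose and 1 fell, with a median log2 fold change of 3.24 beside 0.0078 over all genes. Ccnb2, cyclin B2, a regulatory subunit of the kinase that starts mitosis, rose from 1.3, 0.753 and 1.55 CPM to 46.7, 113 and 103 CPM (log2 6.19, SE 0.46, adjusted p = 1.9e-10). Ube2c, the ubiquitin-conjugating enzyme that works with the anaphase-promoting complex, rose from 3.10, 1.42 and 1.00 to 59.1, 128 and 128 CPM (log2 5.81, SE 0.47). Hmmr, a spindle-associated protein, rose from 2.85, 2.09 and 1.74 to 73.5, 115 and 111 CPM (log2 5.47, SE 0.31). In all 3 genes the times were far apart, and the 72 h replicate 1 library was the lowest of its group. Mki67, the proliferation marker Ki-67, rose from 42.6, 35.6 and 28.8 CPM to 885, 851 and 1020 CPM (log2 4.69, SE 0.28), with all 72 h libraries alike. The exception was Pttg1, securin, an inhibitor of sister chromatid separation. It fell from 14.5, 13.1 and 12.1 to 9.53, 9.69 and 8.24 CPM (log2 -0.54, SE 0.14, adjusted p = 0.0031). Bub3 and Cks2 were not called, at 0.16 (SE 0.16) and 0.65 (SE 0.29). Without the 72 h replicate 1 library, 44 members rose and 1 fell.

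Mitotic genes are known to share short promoter elements, among them the cell cycle homology region and the CCAAT box, so their promoters are shown with that element. A RefSeq promoter window (GRCm38.p6, 250 bases before to 50 after the annotated start) was found for 37 of the 46 genes. The letters TTTGAA, read on either strand, occurred in the windows of 26 of them (70.3%), against 14.5% of the 9909 tested genes with a window. The letters CCAAT occurred in 30 (81.1%), against 43.0%. A match is a description of the sequence and not evidence of binding. Capitals mark TTTGAA or its reverse complement in Ccnb2, Ube2c and Cdc20, the last an activator of the anaphase-promoting complex (log2 fold change 2.67, SE 0.43, called). The windows read 5′ to 3′ on the strand of the gene.
Ccnb2, chr9:70421505-70421804, minus strand: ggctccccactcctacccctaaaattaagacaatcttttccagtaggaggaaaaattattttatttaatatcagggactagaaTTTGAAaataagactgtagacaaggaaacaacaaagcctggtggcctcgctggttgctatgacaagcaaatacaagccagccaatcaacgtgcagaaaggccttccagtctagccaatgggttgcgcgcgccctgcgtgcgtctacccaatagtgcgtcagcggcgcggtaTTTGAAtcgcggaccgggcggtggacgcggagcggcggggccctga
Ube2c, chr2:164769679-164769978, plus strand: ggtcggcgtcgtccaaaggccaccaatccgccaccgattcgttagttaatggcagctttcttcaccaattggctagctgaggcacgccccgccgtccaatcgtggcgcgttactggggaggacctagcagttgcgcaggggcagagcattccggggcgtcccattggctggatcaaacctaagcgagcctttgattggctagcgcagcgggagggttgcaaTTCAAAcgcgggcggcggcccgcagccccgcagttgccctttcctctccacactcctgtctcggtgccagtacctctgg
Cdc20, chr4:118437294-118437593, minus strand: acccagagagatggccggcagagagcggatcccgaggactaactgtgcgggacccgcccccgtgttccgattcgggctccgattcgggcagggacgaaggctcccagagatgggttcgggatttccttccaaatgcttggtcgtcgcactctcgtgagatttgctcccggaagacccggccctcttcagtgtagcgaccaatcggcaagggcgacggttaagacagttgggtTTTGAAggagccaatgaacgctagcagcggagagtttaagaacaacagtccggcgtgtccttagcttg
In Ube2c the match starts 29 bases and in Cdc20 18 bases upstream of the annotated start, and in Ccnb2 1 of the 2 matches starts at base 5 of the transcript. The Ube2c match lies on the opposite strand. The letters ccaat or attgg also occur in lower case in each of the 3 windows.

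DNA replication genes moved less. Of 48 tested, 24 rose and 4 fell, with a median log2 fold change of 0.35. The members that rose most supply nucleotides or are late products of E2F, the factor that opens S phase. Tk1, thymidine kinase, rose from 11.9, 9.54 and 7.49 to 70.4, 93.1 and 92.1 CPM (log2 3.14, SE 0.23), and Rrm2, the ribonucleotide reductase subunit that limits deoxynucleotide supply, from 83.7, 53.6 and 43.1 to 268, 394 and 393 CPM (log2 2.55, SE 0.29). E2f2 rose by a log2 of 2.79 (SE 0.24). The 4 members that fell were Mcm6, Mcm2, Mcm3 and Mcm4, subunits of the replicative helicase, by log2 -0.59 to -0.43. Without the 72 h replicate 1 library 1 of those falls was left and 26 members rose, and without the 24 h replicate 1 or replicate 2 library 1 and 2 falls were left. E2F sites (TTTGGCGC, TTTCCCGC or TTTCGCGC on either strand) lay in the windows of 17 of 40 S phase genes (42.5%) and of 4.2% of tested genes.

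Among the G1 regulators, 14 of 22 tested rose and 4 fell (24 listed; Ccnd1 and Cdkn2a did not pass the filter). Ccne2, a cyclin of the entry into S phase, went from 14.5, 9.70 and 8.04 to 98.4, 80.7 and 74.1 CPM and E2f8, a repressive E2F factor, from 11.9, 5.77 and 5.30 to 111, 119 and 116 CPM (log2 2.97, SE 0.37, and 3.91, SE 0.26). CDK inhibitors rose beside them. Cdkn1a, which encodes p21, rose from 33.7, 29.8 and 28.8 to 440, 238 and 238 CPM (log2 3.31, SE 0.38), with the 72 h replicate 1 library the highest. Cdkn2c and Cdkn2d, members of the INK4 family, rose by log2 2.95 (SE 0.25) and 2.45 (SE 0.15). Ccnd2, cyclin D2, which acts early in activation, fell from 1730, 1730 and 1560 to 876, 762 and 858 CPM (log2 -1.01, SE 0.08).

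Ribosome building ran the other way. Of 45 genes of Myc and ribosome biogenesis, 38 fell and 3 rose, with a median log2 fold change of -1.16. Myc itself fell from 584, 568 and 527 CPM to 146, 281 and 314 CPM (log2 -1.18, SE 0.27, adjusted p = 0.00084). Polr1b, a subunit of RNA polymerase I, which transcribes ribosomal RNA, fell from 255, 246 and 242 to 28.8, 64.5 and 89.7 CPM (log2 -2.02, SE 0.37). In both genes the times did not overlap, and the 72 h replicate 1 library was the lowest. Without it 36 members fell and 3 rose. The 3 that rose were Mxd3, Mxi1 and Mycn. Mxd3 and Mxi1 encode proteins that compete with Myc for its partner Max: Mxd3 rose from 0.652, 0.837 and 0.639 to 19.8, 28.0 and 22.4 CPM (log2 5.02, SE 0.29) and Mxi1 from 14.8, 15.6 and 17.4 to 126, 111 and 102 CPM (log2 2.83, SE 0.24). Mycn stayed below 1 CPM on average at both times. The E-box CACGTG lay in the windows of 12 of 39 of these genes (30.8%) and of 11.9% of tested genes. Genes of the cytosolic ribosomal proteins did not follow the biogenesis genes: 19 of 54 rose and 0 fell, with a median of 0.14 and no member beyond 2-fold, and without the 72 h replicate 1 or the 24 h replicate 3 library 10 rose.

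**Figure D3:**
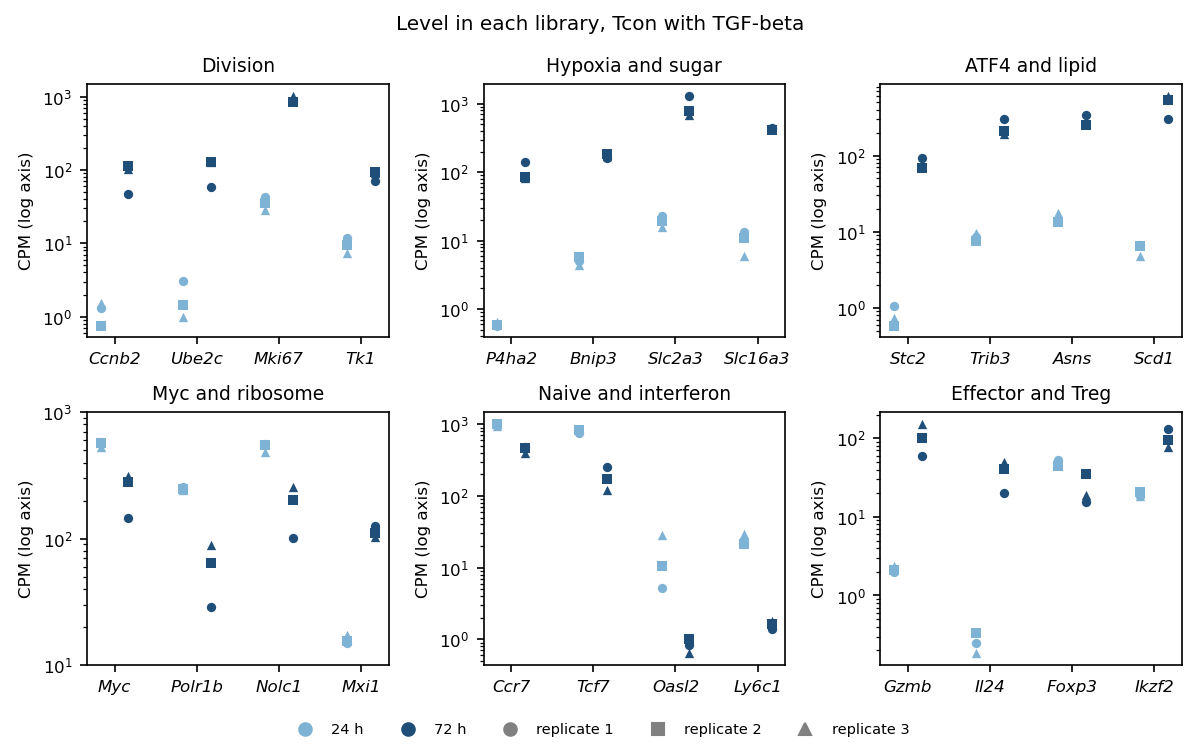
Level (CPM, log axis) of 24 genes in each of the 6 libraries, light blue at 24 h and dark blue at 72 h, with shape giving the replicate. Division, hypoxia, ATF4 and effector genes are higher at 72 h, Myc, ribosome, naive and interferon genes and Foxp3 lower, Mxi1 excepted, and the 72 h replicate 1 library is lowest for Ccnb2, Myc, Polr1b and Scd1.

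Sugar handling rose at nearly every step. Of 24 tested genes of glycolysis and lactate handling (25 listed; Slc16a7 did not pass the filter), 20 rose, each by at least 2-fold, and none fell, with a median log2 fold change of 1.78. Without the 72 h replicate 1 library 19 rose and 1 fell. Slc2a3, a high-affinity glucose transporter, rose from 23.2, 19.2 and 15.8 to 1300, 774 and 684 CPM (log2 5.56, SE 0.54), and Slc2a1, the main glucose transporter of activated T cells, from 66.7, 63.4 and 59.0 to 607, 583 and 646 CPM (log2 3.28, SE 0.14). Slc16a3, which exports lactate, rose from 13.4, 11 and 6.03 to 438, 418 and 447 CPM (log2 5.41, SE 0.27). Ldha, which turns pyruvate into lactate, started high and rose by a log2 of 1.19 (SE 0.17). Members not called were Ldhb, Pfkfb4, Slc16a1 and Eno3, at -0.29 to 0.11.

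Of 25 hypoxia response genes, 22 rose and none fell (median log2 fold change 2.33). They share 7 members with the glycolysis list, 28.0% of the hypoxia list and 29.2% of the glycolysis list. P4ha2, a prolyl hydroxylase of collagen synthesis, rose from 0.571, 0.586 and 0.639 to 143, 84.6 and 83.5 CPM (log2 7.42, SE 0.66), and Bnip3, which marks mitochondria for removal, from 5.05, 5.77 and 4.38 to 162, 184 and 173 CPM (log2 5.09, SE 0.20). Ndrg1 rose from 12.1, 15.6 and 12.7 to 461, 371 and 311 CPM (log2 4.82, SE 0.43). Each of these was far above its 24 h range in every 72 h library. Vegfa, the angiogenic growth factor, rose by a log2 of 4.72 (SE 0.23). Oxygen in the cultures was not measured in these data.

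At the entry to the citrate cycle the members split. Of 33 tested genes 6 rose (18.2%) and 11 fell (33.3%), with a median of -0.17, beside 28% and 24.8% of all genes. Without the 72 h replicate 1 library, though, 6 rose and 6 fell, and 7 fell without the 24 h replicate 1 library. Pdk1, the kinase that switches pyruvate dehydrogenase off and a hypoxia target, rose from 94.4, 93.1 and 102 to 327, 336 and 338 CPM (log2 1.79, SE 0.11), while its relative Pdk2 fell from 10.4, 11.1 and 13.2 to 2.96, 2.50 and 1.35 CPM (log2 -2.34, SE 0.39). Pcx, pyruvate carboxylase, which feeds oxaloacetate into the cycle, rose from 3.42, 2.17 and 2.19 to 77.3, 133 and 128 CPM (log2 5.43, SE 0.28). Nuclear genes of the respiratory chain moved little: 1 of the 60 tested rose and 8 fell, a share below the background of all genes, with changes between -0.85 and 0.28. Without the 72 h replicate 1 library 2 rose and 2 fell, and with any of the 24 h libraries left out 5 fell. Of 13 mitochondrially encoded genes, 6 were listed at 0 in every library and were not tested, and 4 of the other 7 fell, by log2 -0.77 to -0.49. Of those 4 calls, 2 were left without the 72 h replicate 1 or the 24 h replicate 3 library and 1 without either replicate 2 library, and mt-Nd1 alone kept its call in all 6 such fits. Fatty acid oxidation genes rose and fell in equal number, 5 each of 21 (23.8%), near the shares of all genes. Cpt1a, the gate of fatty acids into mitochondria, stood at -0.42 (SE 0.14), a call lost without the 72 h replicate 1 or the 24 h replicate 3 library.

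Amino acid genes under ATF4 rose as a group. Of 43 tested (44 found in the files), 36 rose and 3 fell, with a median log2 fold change of 1.46. Stc2, a secreted glycoprotein gene induced by stress, rose from 1.06, 0.586 and 0.731 to 93.7, 68.1 and 80.1 CPM (log2 6.65, SE 0.39). Trib3, a pseudokinase that feeds back on ATF4, rose from 8.48, 7.53 and 9.59 to 299, 209 and 190 CPM (log2 4.77, SE 0.46), and Asns, asparagine synthetase, from 13.9, 13.5 and 17.4 to 344, 251 and 295 CPM (log2 4.32, SE 0.31). Atf4 itself rose from 309, 305 and 302 to 648, 593 and 582 CPM (log2 0.99, SE 0.17). Aldh1l2 and Nupr1 rose by 5.82 (SE 0.87) and 6.27 (SE 0.84), with the 72 h replicate 1 library above the other 72 h libraries by more than 2-fold in Aldh1l2 (73.6 against 28.9 and 29.9 CPM). The 3 members that fell were Mthfd1 and Shmt1, cytosolic enzymes of folate metabolism, and Wars, the tryptophanyl-tRNA synthetase. Mthfd1 fell from 383, 366 and 329 to 71.6, 156 and 181 CPM (log2 -1.40, SE 0.35). Shmt1 fell by a log2 of 1.20 (SE 0.37), a call that was lost without the 72 h replicate 1 library. Wars stood at 227 and 144 CPM on average (log2 -0.66, SE 0.11). Without that library 36 members rose and 2 fell.

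ATF4 binds composite elements of the form TGATGNAA. The letters lay in the windows of 11 of 33 list members with a RefSeq window (33.3%) and of 2.8% of tested genes. They are shown for Asns and Trib3, both known ATF4 targets, with the match in capitals on the strand of the gene.
Asns, chr6:7693160-7693459, minus strand: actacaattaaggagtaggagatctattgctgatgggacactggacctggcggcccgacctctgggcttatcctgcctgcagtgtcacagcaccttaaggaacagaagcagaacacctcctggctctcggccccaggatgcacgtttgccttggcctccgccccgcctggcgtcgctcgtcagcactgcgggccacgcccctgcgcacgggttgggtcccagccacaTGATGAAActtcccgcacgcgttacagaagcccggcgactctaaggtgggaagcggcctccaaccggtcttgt
Trib3, chr2:152344011-152344310, minus strand: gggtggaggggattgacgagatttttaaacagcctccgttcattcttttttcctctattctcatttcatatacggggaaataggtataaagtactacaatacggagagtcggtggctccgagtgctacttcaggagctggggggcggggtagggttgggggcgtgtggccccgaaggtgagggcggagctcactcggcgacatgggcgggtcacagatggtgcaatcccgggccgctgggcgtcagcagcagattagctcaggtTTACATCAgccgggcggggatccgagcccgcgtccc
In Asns the match starts 23 bases upstream of the annotated start, and in Trib3, where it lies on the opposite strand, at base 15 downstream of it.

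The unfolded protein response moved less. Of 27 tested genes 13 rose and 1 fell (10 and 1 without the 72 h replicate 1 library), with a median log2 fold change of 0.34. Herpud1, of the degradation machinery of the endoplasmic reticulum, went from a mean of 54.4 to 183 CPM (log2 1.75, SE 0.23), and Xbp1, the factor spliced on stress, from 140 to 318 CPM (log2 1.18, SE 0.16). Hspa1a and Hspa1b, 2 near-identical inducible Hsp70 genes between which reads may be split, stood apart from the other heat shock genes. Hspa1b went from 0.326, 0.251 and 0.731 to 60.1, 16.5 and 1.11 CPM, and Hspa1a from 0.326, 0.167 and 0.274 to 44.4, 11.2 and 0.792 CPM. The 72 h libraries thus differed from each other by more than an order of magnitude in each gene, and both calls (adjusted p = 0.0088 and 0.012) were lost without the 72 h replicate 1 library. Of the other 14 tested members of that list, 9 fell. Hspd1, the mitochondrial chaperonin, fell from 996, 908 and 785 to 344, 368 and 441 CPM (log2 -1.22, SE 0.16).

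In lipid synthesis the desaturases rose while fatty acid synthase did not. Of 41 tested genes of sterol and fatty acid synthesis, 19 rose and 5 fell, with a median of 0.43. Without the 72 h replicate 1 library 23 rose and 3 fell, and 3 fell without the 24 h replicate 3 library. Scd1, stearoyl-CoA desaturase, which makes monounsaturated fat, rose from 6.77, 6.52 and 4.75 to 301, 532 and 604 CPM (log2 6.31, SE 0.35). Scd2 rose from 312, 295 and 191 to 2180, 2440 and 2600 CPM (log2 3.18, SE 0.19) and Fads2, the first desaturase of polyunsaturated fat, from 2.04, 1.84 and 1.00 to 54.1, 62.9 and 58.1 CPM (log2 5.14, SE 0.28). Acaca, which makes the malonyl-CoA that fatty acid synthase uses, fell from a mean of 127 to 63.1 CPM (log2 -1.01, SE 0.19). Fasn stood at 918, 967 and 869 CPM at 24 h and 301, 548 and 779 CPM at 72 h (log2 -0.76, SE 0.31, adjusted p = 0.045), a call lost in 5 of the 6 fits that left out 1 library.

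Naive T cell genes fell, with exceptions among cytokine receptors and Krüppel-like factors. Of 29 genes 16 fell and 5 rose (median -0.77). Tcf7, the factor TCF-1 of naive and memory cells, fell from 758, 825 and 873 to 254, 173 and 122 CPM (log2 -2.16, SE 0.22), and Klf3 from a mean of 71.3 to 11.9 CPM (log2 -2.58, SE 0.39). Ccr7, the receptor for lymph node chemokines, fell from 1020, 1010 and 941 to 485, 461 and 402 CPM (log2 -1.14, SE 0.11). The members that rose were Klf4, Klf6, Il7r, Cdkn1b and Tob1: Il7r, the interleukin 7 receptor, rose from 27.1, 31.5 and 50.4 to 103, 71.7 and 70.1 CPM (log2 1.17, SE 0.32). Of the 8 Gimap genes, small GTPases of lymphocyte survival, 7 fell, with Gimap3 going from 263, 312 and 394 to 67.9, 55.2 and 54.1 CPM (log2 -2.45, SE 0.17). Gimap3 and Gimap5 are close in sequence and reads may be split between them. Gimap4 was not called (-0.31, SE 0.24).

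Interferon-induced genes fell in part. Of 50 tested, 22 fell, 5 rose and 23 were not called, with a median log2 fold change of -0.60. Oas2, an antiviral enzyme that senses double-stranded RNA, fell from 2.12, 3.35 and 10.1 to 0.246, 0.156 and 0.158 CPM (log2 -4.72, SE 0.90), and Oasl2 from 5.22, 10.7 and 28.8 to 0.822, 1.02 and 0.634 CPM (log2 -4.15, SE 0.76). In both genes, and in Ifi209 and Ifi213 above, the 24 h libraries spread by several fold, with replicate 3 the highest and replicate 1 the lowest, while the 72 h libraries lay close to the floor. Isg20, an exonuclease gene, ran the other way, from 2.04, 2.17 and 2.83 to 13.0, 19.2 and 16.5 CPM (log2 2.79, SE 0.25). Without the 72 h replicate 1 library 20 members fell and 5 rose.

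The core of the interferon-stimulated response element, TTTCNNTTT, lay in the windows of 26 of 33 members of the interferon list that have one (78.8%) and of 9.6% of tested genes. It is shown in capitals for Ifit3 and Ifi209, which both fell. Ifit3 stood at 5.79, 8.62 and 16.4 CPM at 24 h and 0.657, 3.59 and 1.58 CPM at 72 h (log2 -2.38, SE 0.65), though reads may be split with its near copy Ifit3b.
Ifit3, chr19:34583279-34583578, plus strand: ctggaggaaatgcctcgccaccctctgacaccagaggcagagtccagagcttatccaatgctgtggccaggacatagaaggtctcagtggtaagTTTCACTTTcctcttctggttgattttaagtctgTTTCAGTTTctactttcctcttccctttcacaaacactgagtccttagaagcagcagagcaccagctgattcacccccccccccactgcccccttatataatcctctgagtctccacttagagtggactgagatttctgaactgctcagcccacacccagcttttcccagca
Ifi209, chr1:173630609-173630908, plus strand: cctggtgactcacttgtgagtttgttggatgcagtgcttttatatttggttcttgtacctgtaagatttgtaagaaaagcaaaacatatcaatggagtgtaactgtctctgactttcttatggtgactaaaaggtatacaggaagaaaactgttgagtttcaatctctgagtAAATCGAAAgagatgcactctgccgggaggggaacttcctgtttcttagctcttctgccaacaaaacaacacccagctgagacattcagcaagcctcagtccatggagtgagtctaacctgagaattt
Ifit3 holds 2 matches, which start 156 and 122 bases upstream of the annotated start, and Ifi209 holds 1, which starts 78 bases upstream on the opposite strand. Of all RefSeq promoter windows of this length, 10.6% hold such a match. The share in a gene list describes the list and not the change from 24 to 72 h. Among genes called and at least 2-fold higher, 10.6% held the interferon core, and among those at least 2-fold lower 11.5%. In the same order the shares were 3.7% and 2.2% for E2F, and 18.4% and 15.1% for TTTGAA. They were 4.5% and 2.2% for the ATF4 element, and 8.6% and 15.7% for the E-box.

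**Figure D4:**
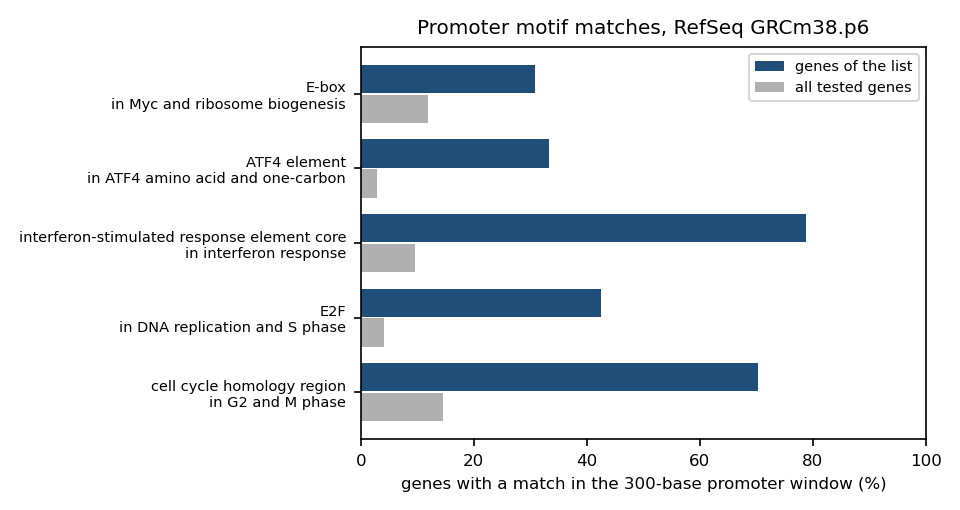
Percent of genes whose 300-base RefSeq promoter window holds each motif, for the members of a gene list and for all tested genes with a window. Of the motifs drawn, the interferon (78.8% against 9.6%), cell cycle homology (70.3% against 14.5%), E2F (42.5% against 4.2%) and ATF4 (33.3% against 2.8%) motifs differ most in ratio, and the E-box (30.8% against 11.9%) least. Motifs not drawn differed less in ratio. They were the sterol regulatory element in the lipid synthesis list (1 of 30 genes, 3.3% against 1.4%), the hypoxia response element core in the hypoxia list (95.7% against 67.6%) and the CCAAT box (81.1% against 43.0%).

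Effector genes came on with the later time. Of 24 helper cytokine genes 14 rose and 2 fell (1 fell in 4 of the 6 fits that left out 1 of these libraries: each but the 24 h replicate 2 and 72 h replicate 1 libraries), with a median log2 fold change of 1.33. Il24, of the interleukin 10 family, rose from 0.245, 0.335 and 0.183 to 20.4, 40.2 and 50.4 CPM (log2 7.12, SE 0.81), and Il9 from 1.71, 1.59 and 1.46 to 13.1, 34.3 and 53.6 CPM (log2 4.40, SE 0.62). Ifng, interferon gamma, rose from 17, 16.9 and 20.9 to 59.5, 102 and 219 CPM (log2 2.80, SE 0.50). In each of these 3 genes the 72 h libraries lay in the same order, with replicate 3 the highest and replicate 1 the lowest. Csf2, the growth factor GM-CSF, and Il10 rose by log2 3.78 (SE 0.31) and 3.07 (SE 0.42). Il2, the T cell growth factor, was at 45.6, 33.0 and 21.8 CPM at 24 h and 25.8, 7.66 and 10.2 CPM at 72 h, which did not pass the test (log2 -1.21, SE 0.51, adjusted p = 0.051), and the groups overlapped. Il6 was next to absent (at most 0.411 CPM). Gzmb, granzyme B, which kills target cells, rose from 1.96, 2.09 and 2.37 to 59.5, 101 and 153 CPM (log2 5.61, SE 0.41), and 8 of 19 tested cytotoxic genes rose and 2 fell. Of these, 6 rose without the 72 h replicate 1 library, 0 fell without the 72 h replicate 2 library, and 1 fell without the 72 h replicate 3 library or the 24 h replicate 1 or 2 library. Beside these genes the CD8 and natural killer cell markers Cd8a, Klrk1, Klrd1 and Eomes rose too, as given above, and their part in the change of Gzmb and Ifng was not tested. On the receptor side Il2ra, the high-affinity receptor chain for interleukin 2, rose from 1220, 1240 and 1140 to 1390, 2070 and 2230 CPM (log2 0.65, SE 0.20), a call lost without the 72 h replicate 3 library, and Stat5a, which carries its signal, fell by a log2 of 1.29 (SE 0.10).

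Lineage factors changed in both directions, as all genes did. Of 29 tested, 11 rose (37.9%) and 9 fell (31.0%), beside 28% and 24.8% of all genes. Maf, a factor that drives interleukin 10 in T cells, fell from 66.6, 82.0 and 87.9 to 19.0, 18.5 and 18.8 CPM (log2 -2.07, SE 0.23). Runx3, which promotes cytotoxic genes, rose from 48.5, 47.2 and 46.5 to 214, 318 and 282 CPM (log2 2.52, SE 0.15), and Bhlhe40, a regulator of cytokine output, from 95.9, 94.1 and 79.7 to 752, 624 and 672 CPM (log2 2.92, SE 0.19). Tbx21, the factor of T helper 1 cells, fell by a log2 of 0.54 (SE 0.14), Gata3, that of T helper 2 cells, rose by 0.81 (SE 0.22), and Bcl6, that of follicular helper cells, was not called (-0.98, SE 0.45). Immediate early genes of receptor signalling were not uniform either: 10 of 29 rose (34.5%) and 4 fell (13.8%). Irf4 stood at -1.53 (SE 0.14), Nr4a1 at 0.13 (SE 0.15, not called) and Cd69 at -0.42 (SE 0.17, adjusted p = 0.046, a call lost in 5 of 6 fits that left out 1 library).

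Foxp3 stood at 52.3, 44.2 and 45.5 CPM in the 24 h libraries and fell to 15.4, 35.6 and 19.2 CPM at 72 h (log2 -1.02, SE 0.28, adjusted p = 0.004). The groups did not overlap. At 72 h the cells with the Foxp3 reporter on had been sorted into a population of their own, which held 153, 303 and 215 CPM, and the part of the gate in the fall was not tested. Whether fewer cells held Foxp3 or each held less cannot be told apart in bulk RNA, here or for any other gene. Without TGF-beta, Tcon held at most 1.33 CPM of Foxp3 at 24 h and 0.307 CPM at 72 h. Most genes of the Treg list went the other way: of 30, Foxp3 included, 19 rose and 6 fell (median 1.42). Ikzf2, the Ikaros-family factor Helios, rose from 18.3, 20.7 and 18.2 to 131, 95.3 and 76.6 CPM (log2 2.40, SE 0.22). Itgae, the integrin CD103, a known TGF-beta target, rose from 7.58, 8.45 and 8.59 to 74.8, 55.0 and 37.9 CPM (log2 2.77, SE 0.25), and Ctla4, an inhibitory receptor, from 55.0, 56.2 and 69.1 to 143, 213 and 195 CPM (log2 1.61, SE 0.17).

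Of 21 inhibitory receptors and ligands 6 rose (28.6%) and 9 fell (42.9%), beside 28% and 24.8% of all genes. The galectin genes Lgals1 and Lgals3 rose by log2 3.64 (SE 0.14) and 3.77 (SE 0.44), and Havcr2, the receptor TIM-3, from 0.815, 1.00 and 1.10 to 7.31, 4.22 and 6.49 CPM (log2 2.62, SE 0.43). Btla and Tigit, both inhibitory receptors, fell: Btla from 229, 214 and 189 to 73.8, 50.2 and 60.0 CPM (log2 -1.78, SE 0.18) and Tigit from 11.7, 14.8 and 13.6 to 6.08, 3.75 and 6.97 CPM (log2 -1.25, SE 0.27). The list shares 3 genes with the Treg list.

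Within the TGF-beta pathway, 16 of 39 tested genes rose (41.0%) and 9 fell (23.1%), beside 28% and 24.8% of all genes, with a median of 0.27. Of the receptors, Tgfbr1, which carries the kinase signal, fell from 575, 659 and 635 to 193, 192 and 213 CPM (log2 -1.65, SE 0.13). Of the ligands, Tgfb1 rose from 218, 239 and 234 to 312, 335 and 311 CPM (log2 0.47, SE 0.09). Of the feedback inhibitors, Smad7 fell from 72.3, 80.8 and 101 to 59.2, 52.1 and 46.6 CPM (log2 -0.68, SE 0.22), a call lost without the 24 h replicate 3 library, while Skil was not called (0.27, SE 0.17). The pathway thus held a falling receptor beside a rising ligand, with TGF-beta added to both groups.

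The same times were compared in Tcon without TGF-beta, which share no library with these groups, to test where TGF-beta medium changed the course. In that medium the median of the G2 and M phase list was 2.55 (3.24 with TGF-beta), of the hypoxia list 1.77 (2.33) and of the Myc list -0.93 (-1.16). The interaction of time with TGF-beta passed the test for 823 genes (5.73%): for 344 (2.39%) the change was more positive with TGF-beta and for 479 (3.33%) more negative, and 2581 genes had an unadjusted p below 0.05. The split between directions depended on scaling, with 438 more positive and 399 more negative under RLE scaling, and 639 and 520 in DESeq2. Same-numbered libraries at 24 h deviated together from their group means (r = 0.123 to 0.39 over 3 numbers, beside -0.342 to 0.0234 for other-numbered libraries). At 72 h r was 0.61 for same-numbered and -0.61 for other-numbered libraries over the 2 shared numbers. With 2 libraries a group the deviations mirror each other, so these are 1 value. With the replicate number within each time as a block, the interaction was called for 2794 genes (19.4%), 1161 more positive and 1633 more negative, and these include all 823. Without the block the number called was 534 without the 72 h replicate 2 library with TGF-beta and 1411 without replicate 1 at both times, and the 72 h group without TGF-beta had only 2 libraries.

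The largest test statistic belonged to Epas1, which encodes hypoxia-inducible factor 2 alpha. Without TGF-beta it rose from 1.93, 1.84 and 1.51 to 75.6 and 86.0 CPM. With TGF-beta it was at 2.53, 3.51 and 5.94 CPM at 24 h and 4.35, 4.45 and 3.88 CPM at 72 h (log2 0.09, SE 0.23, not called), an interaction of -5.41 (SE 0.34, adjusted p = 6.2e-10). The late rise of this gene was thus measured in 1 medium and not in the other. Fam213a, Dnah12, Tbkbp1 and Gimap5 also had more negative changes with TGF-beta, by -4.18 to -1.34. Xcl1, a lymphocyte chemokine, fell less with TGF-beta: it went from 183, 152 and 143 to 49.5, 60.5 and 68.3 CPM with TGF-beta and from 67.2, 70.8 and 63.0 to 2.82 and 2.00 CPM without it (interaction 3.38, SE 0.34). Ltb, lymphotoxin beta, rose from 208, 214 and 227 to 403, 457 and 417 CPM with TGF-beta and fell from 124, 129 and 134 to 96.8 and 79.1 CPM without it (interaction 1.53, SE 0.16).

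**Figure D5:**
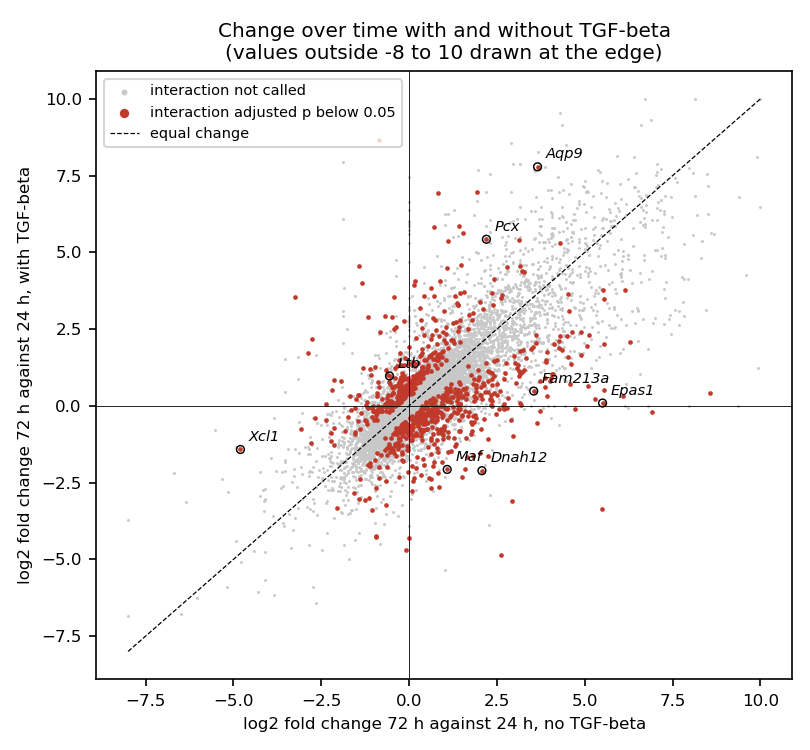
Log2 fold change from 24 to 72 h of each tested gene without TGF-beta (x axis) and with it (y axis); red points are the 823 genes with a called interaction, and the dashed line marks equal change. Epas1 and Fam213a lie near 0 on the y axis and far to the right, and Xcl1 lies above the line.

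Several genes described above took a different course without TGF-beta. Maf stood at low levels without TGF-beta and went from 3.41, 3.93 and 6.22 to 11.1 and 7.98 CPM without it (interaction -3.16, SE 0.36). Ikzf2 rose less without TGF-beta, from 9.93, 10.1 and 13.6 to 26.8 and 17 CPM (interaction 1.43, SE 0.33), and so did Pcx, from 6.08, 4.77 and 3.91 to 21.6 and 24.0 CPM (interaction 3.23, SE 0.40). Of the 21 inhibitory receptors and ligands, 8 had a more negative change with TGF-beta and 0 a more positive one, and with the replicate block 12 and 3. Over all 14375 genes tested 479 (3.33%) were more negative and 344 (2.39%) more positive, and with the block 1633 and 1161. Tigit rose from 19.9, 20.2 and 23.7 to 65.1 and 42.6 CPM without TGF-beta (interaction -2.59, SE 0.38), and Ctla4 rose more without it, from 24.6, 27.2 and 31.4 to 258 and 185 CPM (interaction -1.38, SE 0.25). Of the 27 genes of the unfolded protein response, 8 were likewise more negative with TGF-beta and 0 more positive, and with the replicate block 17 and 0, beside the same counts over all genes. The median change of that list was 1.01 without TGF-beta beside 0.34 with it. Other lists leaned to the positive side. Of 46 G2 and M phase genes 4 were more positive and 1 more negative, and with the block 26 and 1. For 48 DNA replication genes the counts were 1 and 0, and with the block 23 and 0. For 25 hypoxia genes they were 6 and 0, and then 12 and 0. The 45 Myc and ribosome biogenesis genes gave 0 more positive and 1 more negative, and with the block 1 and 21. For Foxp3 the interaction was not called (1.80, SE 1.10, adjusted p = 0.43), nor with the replicate block (1.86, SE 0.95, adjusted p = 0.185).

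How many genes took another course with lactic acid in TGF-beta medium depended on the replicate block. Without the block, the interaction of time with lactic acid, again between groups with no library in common, passed for 4 genes (0.0278%): Lad1, Marcksl1, Ly6c1 and Gimap5, each at an adjusted p of 0.0354, with 821 genes at an unadjusted p below 0.05 and 19 called by DESeq2. Between these groups r of same-numbered libraries was 0.18 to 0.319 at 24 h and 0.179 to 0.57 at 72 h. Other-numbered libraries gave -0.262 to -0.0252 and -0.513 to 0.245. At 72 h replicate 2 without lactic acid correlated more with replicate 3 with it (0.245) than with replicate 2 (0.179). Numbers 2 and 3 were thus not clearly matched at 72 h. With the replicate number within each time as a block, 483 genes (3.36%) were called, 159 more positive and 324 more negative with lactic acid, the 4 among them. Ly6c1 ended at 1.40, 1.64 and 1.82 CPM at 72 h without lactic acid and at 16.3, 20.5 and 13.0 CPM with it, from 29.4, 39.5 and 50.5 CPM at 24 h (interaction 2.64, SE 0.47, and 2.66, SE 0.28, with the block). Lad1 went from 327, 294 and 229 to 219, 172 and 207 CPM without lactic acid and from 220, 206 and 173 to 57.7, 57.3 and 59.0 CPM with it (interaction -1.28, SE 0.22). None of the 4 was called when the compared groups were fitted alone without the block.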

How the data were processed

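RNA was measured in 29 libraries, 3 for each of the groups set against each other here except 72 h Tcon without TGF-beta (2). Per the labels' protocols, polyadenylated RNA went into a strand-specific library and was read as 65-base single reads. Per the submitters' processing notes, the tools were STAR 2.7.3a, HTSeq 0.12.4 and DESeq2 1.30.1 on GRCm39. Not given in the sources used here were the strand setting and the release of the annotation. The deposited values are whole-number counts of reads per gene, not normalized. Of 55414 gene IDs, 52081 were matched to a symbol. Summary lines of the counter were left out of library sizes: in the 6 libraries 5.768 to 11.181% of reads had no feature, 1.024 to 1.103% were ambiguous and 13.283 to 15.635% were of low quality.

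From these counts, edgeR 4.0.16 in R 4.3.3 fitted its quasi-likelihood model to all 29 libraries in 10 groups, with TMM scaling after filterByExpr had dropped low genes (a minimum count of 10, and 15 in total). P-values were adjusted by Benjamini-Hochberg over 14375 genes, and genes below 0.05 are called. Standard errors are the log2 fold change over the square root of F. The procedure was tested on simulated data. Alternatives were the compared groups alone, RLE and upper-quartile scaling, no filter, sex or a replicate block, DESeq2 1.42.0 and each library left out. Same-numbered libraries did not deviate together across times (r = -0.0163 to 0.0705). Within each time every same-numbered r was at or above 0.123, and other-numbered r reached 0.245, a check added after the data were seen. The interactions are therefore given with and without the replicate number within time as a block.

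The libraries, gene lists and tests were chosen with earlier results of these data known. Named genes are the 15 largest called rises and falls with no overlap between the times, a mean of at least 5 CPM over the 6 libraries and no model name, up to 4 called members a direction of each list with the largest changes, a fixed panel, and the 8 genes with the smallest p of each interaction. Asns, Atf4, Bub3, Cd8a, Cd8b1, Cdc20, Cdkn2c, Cdkn2d, Cks2, Eno3, Eomes, Gimap4, Ifit3, Klrd1, Klrk1, Ldha, Ldhb, Ncr1, Pfkfb4, Slc16a1, Tob1, Trib3 and Vegfa were added after their values were seen. Promoters are RefSeq windows of GRCm38.p6, matched by symbol. Some genes that the rule names are not reported here.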

Additional observations from a re-analysis of the deposited data

Results flagged for a closer look

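Of the 275 genes named in the comparison or leading the interactions, 47 changed differently between 24 and 72 h with and without TGF-beta, by edgeR's test of the difference itself. Over all genes tested 5.73% were called, 3.33% more negative and 2.39% more positive. Genes that lead this interaction were named for the smallest p of it, so their calls were fixed by the naming rule. For 32 of the 47 the log2 change was more negative with TGF-beta. These differences were Fbxo2 -8.84, Epas1 -5.41, Dnah12 -4.18, Art2b -3.28, Maf -3.16, Fam213a -3.07, Cxcr5 -3.01, Pdk2 -2.91, Slamf6 -2.65, Csf1 -2.60, Tigit -2.59, Itga4 -2.49, Gsta4 -2.33, Tbkbp1 -2.31, Tnfrsf8 -2.01 and H2-Q6 -1.90. The others were Gimap3 -1.78, Csf2 -1.75, Btla -1.60, Ctla4 -1.38, Gimap5 -1.34, Alpl -1.27, Tnfrsf25 -1.27, Ski -1.04, Dgka -0.96, Tbx21 -0.91, Lgals1 -0.89, Cd5 -0.86, Acadvl -0.75, Stat5a -0.73, Pttg1 -0.70 and Trbc2 -0.52. They include the surface receptor genes Tigit, Btla, Cxcr5 and Slamf6 and the hypoxia factor gene Epas1. The Fbxo2 value has 0 counts in the 24 h group without TGF-beta and is no bound. For 15 genes the change was more positive with TGF-beta: Lamp1 0.39, Pdk1 0.82, Slc2a1 0.89, Ccr7 1.08, Ikzf2 1.43, Ltb 1.53, Txk 1.59, Ccl4 1.67, Isg20 2.05, Ccl3 2.23, Scin 2.28, Ifng 2.46, Pcx 3.23, Xcl1 3.38 and Aqp9 4.13. These include the chemokine genes Ccl3, Ccl4 and Xcl1.

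With lactic acid, 4 genes changed differently from TGF-beta alone by the same test: Ly6c1 2.64, Gimap5 0.73, Lad1 -1.28 and Marcksl1 -1.49, each at an adjusted p of 0.0354. They are the 4 called over all genes tested (0.0278%), so their calls were fixed by the naming rule.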

How the results depend on the processing

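The time comparison gave between 6438 calls (compared groups alone) and 8313 (replicate block) over all alternatives with every library, against 7588, and 6567 to 7223 with 1 library left out. Without replicate 1 at both times 8074 genes were called. At 4-fold in place of 2-fold, 1531 genes were called. No named gene that was called reversed: of 273 such results 229 kept the call under every alternative and 42 lost it with at least 1 library left out. Uncalled values changed sign for Epas1 (-0.154 to 0.4845 with 1 library left out, the negative value without 24 h replicate 1, and -0.1972 without replicate 1 at both times) and Nr4a1 (-0.01858 to 0.2204, the negative value without 72 h replicate 3).

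The interaction with TGF-beta (823) gave 545 calls with the compared groups alone, which is a fit of fewer samples, 1411 without replicate 1 at both times, and 534 to 1007 with 1 library left out, the lowest without the 72 h replicate 2 library with TGF-beta. The interaction with lactic acid (4) gave 16 with no filter, 0 with the compared groups alone, 12 with sex as a covariate, 19 with DESeq2, 54 without replicate 1 at both times and 0 to 3 with 1 library left out. The cause was not tested.

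Labels share replicate numbers. Across times, deviations of same-numbered libraries correlated at 0.00551, 0.0705 and -0.0163, so the numbers do not pair the time comparison. Within a time every such correlation between the groups of an interaction was at or above 0.123, while other-numbered libraries reached 0.245. A replicate block over all libraries gave 1279 calls for the interaction with TGF-beta and 13 for that with lactic acid, and a replicate block within each time point gave 2794 and 483. The block within time was not run for the time comparison, where it could not be estimated. Genes with few counts at 24 h carry wide counting intervals. In simulated counts for the 24 to 72 h comparison over 14207 genes, 42% of 1.5-fold and 68% of 2-fold changes were recovered. For 4-fold and 8-fold changes it was 98% and 96%, and 18 calls were false. Only 50 genes were changed at each fold in the simulation, whereas 52.8% of genes were called in the data. The adjustment of p-values depends on that share, so these rates do not describe the comparison itself.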
